A study of Mus musculus and Homo sapiens with 107 samples.

Results

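The NR4A receptors are a family of 3 orphan nuclear receptors, encoded by NR4A1 (Nur77), NR4A2 (Nurr1) and NR4A3. They were followed by their Ensembl identifiers, ENSG00000123358 for NR4A1, ENSG00000153234 for NR4A2 and ENSG00000119508 for NR4A3, and are 3 of the 25530 genes listed in at least 1 of the RNA-seq count tables. The family was selected on the measured A549 log2 fold changes with BRM014, because 2 of its members, NR4A2 and NR4A3, had rises among the largest. Of all 15188 genes tested there, they were at ranks 5 and 15. The A549 response is therefore given below as a description, without a test, and the response of H1299 cells, whose libraries the choice did not use, is tested.

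NR4A genes are immediate early genes: growth factors, cyclic AMP, calcium and cell stress induce them within a short time and without new protein synthesis, partly through the transcription factor CREB and its CRTC coactivators. The proteins bind DNA and act as transcription factors with no established natural ligand, so the amount of receptor made is held to be a main control of their activity. NR4A1 and NR4A2 can pair with the retinoid X receptor, which NR4A3 is not known to do. NR4A1 is best known from activated T cells and from cell death, NR4A2 from the development of midbrain dopamine neurons, and NR4A3 as the partner in a fusion oncogene of extraskeletal myxoid chondrosarcoma.

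The series has 107 samples, and the 12 RNA-seq libraries were used here. They come from the established lung cancer lines A549 and H1299 (human, non-small-cell), which are both labelled wild type for genotype and are both known to lack a working copy of BRG1, so that BRM is the SWI/SNF ATPase left in them. Each line was kept for 12 h with 5 µM BRM014, an allosteric inhibitor of the ATPases BRG1 and BRM of the SWI/SNF chromatin remodelling complexes, or with its solvent DMSO, with 3 libraries in each of the 4 groups. The titles give DMSO at 0.05% and the treatment field at 0.5%. The lines were grown in different media (F12-K for A549, RPMI for H1299) and amplified with 9 and 8 cycles of PCR, so line, medium and amplification cannot be told apart. Nothing in the labels says that replicates were separate cultures, and the spread behind the p-values may be technical in part or whole.

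The A549 libraries held 40684360 to 50177678 counts and the H1299 libraries 28412113 to 41780029. Of the A549 BRM014 libraries, 2 carry the same column header, so they have no replicate number of their own; they are called libraries a and b here, in column order, and the A549 log2 fold changes and their differences from H1299 were also computed without both. No pair of replicate libraries was within sampling noise of each other: over genes with at least 20 counts, the chi-square per degree of freedom was 2.52 to 11.1 in A549 and 2.20 to 5.01 in H1299. All 3 NR4A genes passed the filter on low counts in both lines, and each did so in every DMSO library as well as in every BRM014 library. The levels below are CPM, counts per 1000000 counts of a library, with TMM scaling over the 12 libraries, in which each value is relative to the other genes of its library. In bulk RNA, more transcript per cell and more cells with the transcript cannot be told apart.

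All 3 receptors were higher with BRM014 in A549, by 3.55-fold for NR4A1, 12.1-fold for NR4A2 and 6.37-fold for NR4A3. In H1299, NR4A1 rose 1.26-fold and NR4A2 1.62-fold, both past the test, while NR4A3, at 1.30-fold, did not pass it. The lines also differed in their starting levels. Without the inhibitor NR4A1 and NR4A3 were higher in A549, and NR4A2 was higher in H1299.

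**Figure D1:**
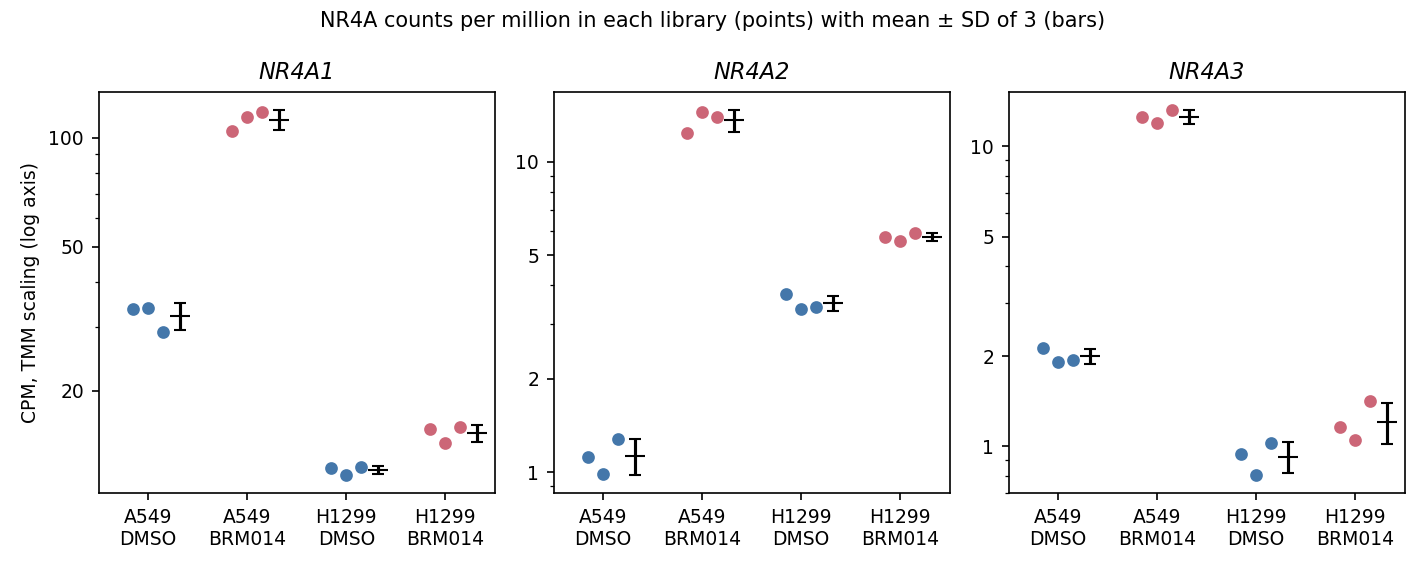
CPM of NR4A1, NR4A2 and NR4A3 (log axis, TMM scaling) in each of the 12 libraries, with points for libraries (blue for DMSO, red for BRM014) and black bars for the mean ± SD of 3. The A549 BRM014 libraries are the highest in every panel, and the lowest group is H1299 with DMSO for NR4A1 and NR4A3 but A549 with DMSO for NR4A2.

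NR4A1, the receptor with the most counts in every library, had 33.6, 33.9 and 29.0 CPM in the A549 DMSO libraries 1, 2 and 3. In A549 with BRM014 it had 104.7 CPM in library a, 114.3 in library b and 118.1 in replicate 3. The lowest treated library was thus 70.8 CPM above the highest control, and the ratio over the 9 pairs of a treated and a control library ran from 3.09 to 4.07. The log2 fold change was 1.83 with a standard error of 0.07, and it was 1.88 without libraries a and b. Among all 15188 genes tested in A549 this was rank 57 from the top. The A549 counts of NR4A1 spread more than counting alone gives, with a chi-square per degree of freedom of 10.2 among the DMSO and 13.3 among the BRM014 libraries. DMSO replicate 3 and library a were the low ones of their groups.

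In H1299, NR4A1 had 12.2, 11.7 and 12.3 CPM in DMSO replicates 1 to 3 and 15.7, 14.3 and 15.8 CPM in BRM014 replicates 1 to 3. The groups did not overlap, with 2.02 CPM between the lowest treated and the highest control library. The log2 fold change was 0.34 (standard error 0.07, 95% interval 0.19 to 0.48), and its adjusted p was 5.26e-04 in edgeR's quasi-likelihood test with Benjamini-Hochberg adjustment over 14986 genes. NR4A1 was higher in 9 of 9 pairs of libraries. Rises of this size were common in this line: 1048 other genes had a larger log2 fold change.

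NR4A2 rested on few counts in untreated A549 cells, with 47, 36 and 58 counts in DMSO replicates 1 to 3, or 1.12, 0.984 and 1.28 CPM. With BRM014 it had 503 counts in library a, 612 in library b and 563 in replicate 3, or 12.4, 14.5 and 14.0 CPM. Every treated library was at least 9.66 times every control, and the highest ratio of the 9 pairs was 14.7. The log2 fold change in A549 was 3.60 with a standard error of 0.12, and 3.62 without libraries a and b. From the summed counts, 1678 with BRM014 and 141 with DMSO, the ratio per library total was 12.6 with an exact 95% interval of 10.6 to 15.0, which covers counting error only.

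NR4A2 in H1299 began at a higher level than in A549, with 3.74, 3.36 and 3.41 CPM in DMSO replicates 1 to 3. It stood at 5.75, 5.57 and 5.88 CPM in BRM014 replicates 1 to 3, and the groups did not overlap. The log2 fold change was 0.70 (standard error 0.12, 95% interval 0.46 to 0.94) with an adjusted p of 1.38e-05 in edgeR. This was the largest change of the family in H1299 and was exceeded by 196 of the 14986 genes tested. Among the 13123 genes with a mean of at least 1 CPM over the H1299 libraries, NR4A2 was at rank 74. The spread of NR4A2 within the H1299 groups, a CV of 5.87% with DMSO and 2.79% with BRM014, was below the 8.96% and 6.81% that counting error alone gives on average.

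NR4A3 had 2.12, 1.91 and 1.95 CPM in the A549 DMSO libraries 1, 2 and 3. With BRM014 it had 12.5 CPM in library a, 11.9 in library b and 13.2 in replicate 3, so that the groups lay 9.80 CPM apart. The log2 fold change in A549 was 2.67 with a standard error of 0.09, and 2.73 without libraries a and b. Among all 15188 genes tested in A549, NR4A2 and NR4A3 were at ranks 5 and 15. Among the 10652 genes with a mean of at least 5 CPM over the A549 libraries they were at ranks 1 and 2, the next gene had a log2 fold change of 2.25, and NR4A1 was at rank 8. NR4A2 and NR4A3 reached that mean only through their BRM014 libraries, so their rise decided that they were counted there.

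NR4A3 was the least abundant by counts of the family in H1299, with 40, 27 and 31 counts in DMSO replicates 1 to 3 and 39, 47 and 49 in BRM014 replicates 1 to 3. In CPM these were 0.947, 0.804 and 1.03 with DMSO and 1.16, 1.05 and 1.41 with BRM014. The groups did not overlap, but only 0.0241 CPM lay between them, and the ranges of the mean ± 1 SD overlapped. The log2 fold change was 0.37 (standard error 0.25, 95% interval -0.13 to 0.88), with an adjusted p of 0.316 and an unadjusted p of 0.139 in edgeR. A rise of NR4A3 as large as that of NR4A2 in H1299 lies within this interval, as does no change.

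Of the 3 receptors, 2 thus rose in H1299 and none fell, where 9.29% of all genes tested rose and 12.7% fell by the same rule. The libraries of all 3 were higher with BRM014 without overlap, a pattern that 16.6% of the genes tested in H1299 showed. In A549 the libraries of all 3 were also higher without overlap, against 23.4% of the genes tested. The family was chosen on the A549 rises of NR4A2 and NR4A3, so this comparison is a description only. By edgeR's adjusted p, 37% of the genes tested in A549 changed and 17.7% rose, against 22% that changed in H1299. The receptors' ranks among the A549 genes, given above, come from the values that chose the family and are likewise a description only. The share of rises depended on scaling: when libraries were scaled by their totals alone, 58.4% of the changed genes in H1299 were higher, against 42.2%. In A549 these were 60.9% and 47.7%. The log2 fold changes of the receptors moved little with it, to 0.37, 0.73 and 0.41 for NR4A1, NR4A2 and NR4A3 in H1299.

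**Figure D2:**
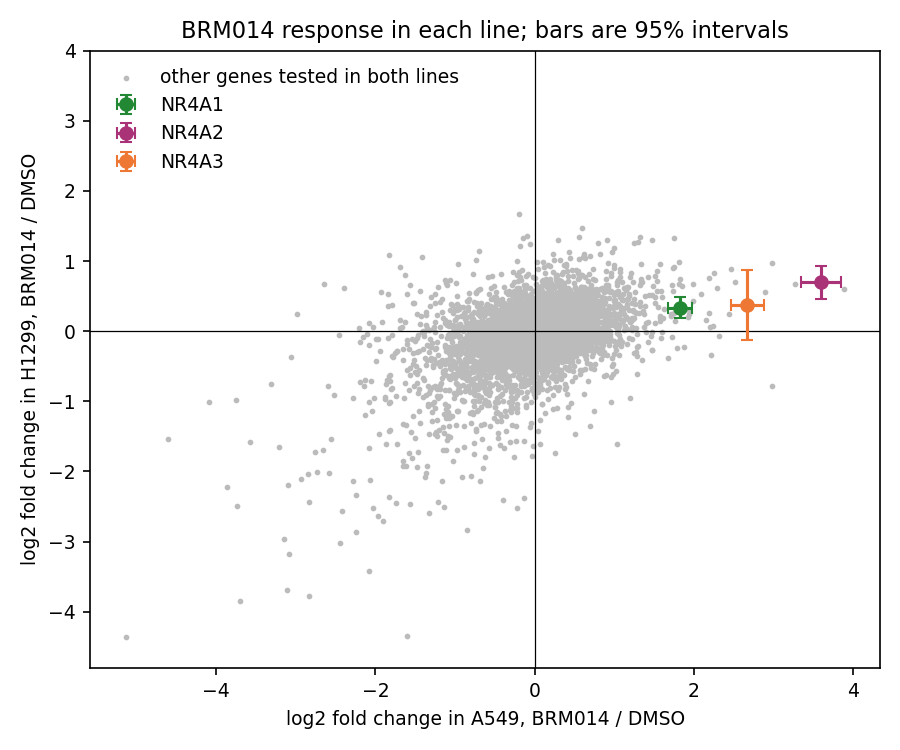
Log2 fold change with BRM014 in A549 (x axis) and in H1299 (y axis) for the 13675 genes tested in both lines, with NR4A1, NR4A2 and NR4A3 in colour and bars for their 95% intervals. The receptors lie at 1.83, 3.60 and 2.67 on the x axis. The family was chosen on that axis, so their place along it is not read. On the y axis they lie between 0.34 and 0.70, within the spread of the other genes.

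The gap between the responses was wide for each receptor. In a fit of all 12 libraries, the response in H1299 minus that in A549 was -1.47 on the log2 scale for NR4A1 (standard error 0.10), -2.88 for NR4A2 (0.16) and -2.28 for NR4A3 (0.23). These differences hold the A549 response that chose the members and have no test. Without libraries a and b they were -1.54, -2.91 and -2.35. Genes with a large rise in A549 give the background for the H1299 values, and these include the other receptors. There were 29 genes besides NR4A1, tested in both lines, whose rise in A549 was at least as large as its own. NR4A2 and NR4A3 were among the 29. Of the 29, 9 rose in H1299, with NR4A2 among the 9, and 1 fell. The median log2 fold change of the 29 in H1299 was 0.43. Over all 13675 genes tested in both lines 1320 rose in H1299, 1800 fell and the median was 0.0025. Of the 29, 16 had an H1299 log2 fold change at least as large as that of NR4A1. These 16 included NR4A2 and NR4A3. For NR4A3 there were 6 such genes, NR4A2 among them, with a median of 0.64 in H1299. Of the 6, 5 were at least as high there as NR4A3, and NR4A2 was among these 5. For NR4A2 there was 1 such gene, at 0.60 in H1299, below NR4A2.

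The order of the 4 groups was the same for NR4A1 and NR4A3 and different for NR4A2. NR4A1 went from 12.1 ± 0.315 CPM in H1299 with DMSO to 15.3 ± 0.844 in H1299 with BRM014, 32.2 ± 2.73 in A549 with DMSO and 112.4 ± 6.90 in A549 with BRM014 (SD, n = 3 each). No 2 neighbours in this order had overlapping libraries. NR4A3 had the same order, with 0.926 ± 0.113, 1.21 ± 0.186, 1.99 ± 0.114 and 12.5 ± 0.639 CPM. The mean ± 1 SD of the H1299 groups overlapped, and those of the other neighbours did not.

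NR4A2 was lowest in A549 with DMSO, at 1.13 ± 0.150 CPM, and highest in A549 with BRM014, at 13.6 ± 1.08 CPM. Both H1299 groups lay between, at 3.51 ± 0.206 CPM with DMSO and 5.73 ± 0.160 with BRM014 (SD, n = 3). The line with more NR4A2 was thus H1299 without the inhibitor and A549 with it. On the log2 scale, H1299 minus A549 was 1.63 (standard error 0.14) with DMSO and -1.25 (0.09) with BRM014. For NR4A1 the same differences were -1.41 (0.07) and -2.88 (0.06), and for NR4A3 -1.11 (0.17) and -3.39 (0.12), lower in H1299 in both conditions. These values share the A549 libraries with the response that chose the members and are a description. When libraries were scaled by their totals alone, the DMSO differences became -1.19, 1.85 and -0.88 for NR4A1, NR4A2 and NR4A3, as the median of all genes moved from 0.02 to 0.24.

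Across the 12 libraries, which form 4 clusters by line and treatment, log2 CPM of NR4A1 and NR4A3 had a Pearson correlation of 0.984. Of 12692 genes tested in both lines with a mean of at least 1 CPM, NR4A3 had the rank 16 in likeness to NR4A1, and NR4A1 had rank 5 in likeness to NR4A3. NR4A2 correlated with NR4A1 at 0.454 and with NR4A3 at 0.589, at ranks 873 and 503 in likeness to NR4A2. Within a line, over 6 libraries in 2 clusters, these values were higher: NR4A2 correlated with NR4A1 at 0.990 in A549 and 0.970 in H1299, and with NR4A3 at 0.996 and 0.799. NR4A1 and NR4A3 correlated at 0.995 in A549 and 0.884 in H1299. The gene most like NR4A1 was the one listed as ENSG00000127955, at 0.995, with ENSG00000105643 next and also at 0.995. In A549, ENSG00000127955 had 38.4 ± 0.661 CPM with DMSO and 56.6 ± 2.40 with BRM014, a smaller rise than that of NR4A1. In H1299 it had 26.4 ± 1.07 and 29.0 ± 0.722 CPM. The gene most like NR4A2 was ENSG00000139112, at 0.994. ENSG00000139112 had 22.8 ± 0.334 and 52.7 ± 1.13 CPM in A549 with DMSO and BRM014, and 31.5 ± 0.996 and 38.5 ± 0.970 in H1299 (SD, n = 3). This was the order of groups seen for NR4A2. These correlations rest on the group means and on libraries that all genes share, and are a description.

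Ratios of the receptors' counts within a library do not depend on how libraries are scaled, and show whether the members changed in step. Since the transcripts differ in length, a ratio says nothing about which receptor has more molecules; only its change is read. The first ratio is that of NR4A2 to NR4A1. In H1299 there were 30.7, 28.8 and 27.8 NR4A2 counts per 100 NR4A1 counts in DMSO replicates 1 to 3, and 36.6, 38.9 and 37.2 in BRM014 replicates 1 to 3. The groups did not overlap, and the ratio was 1.29 times as high with BRM014 by the mean of the log ratios. A two-sided exact permutation test gave p = 0.1, the smallest that 3 against 3 libraries can give, and 0.3 after Benjamini-Hochberg adjustment over the 3 ratios.

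The family was chosen on the A549 rises of NR4A2 and NR4A3, so the A549 changes of these ratios are a description only. In A549, NR4A2 relative to NR4A1 went from 3.55 ± 0.781 to 12.1 ± 0.469 counts per 100 (SD, n = 3). That was 3.46 times as high by the mean of the log ratios. NR4A3 relative to NR4A1 was also higher with BRM014 in A549, going from 6.22 ± 0.537 to 11.2 ± 0.760 per 100. In H1299 the means differed by less than the spread, at 7.66 ± 0.748 and 7.89 ± 0.897 per 100, with overlapping groups and an exact permutation p of 0.7 (n = 3 against 3). NR4A2 relative to NR4A3 went in A549 from 56.7 ± 7.99 to 108.7 ± 11.4 counts per 100. In H1299 the groups overlapped for that ratio, at 381.9 ± 44.6 and 480.3 ± 58.1 per 100, with an exact permutation p of 0.2 (n = 3 against 3). With either treatment, there were more NR4A2 counts per 100 of each relative in H1299 than in A549.

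**Figure D3:**
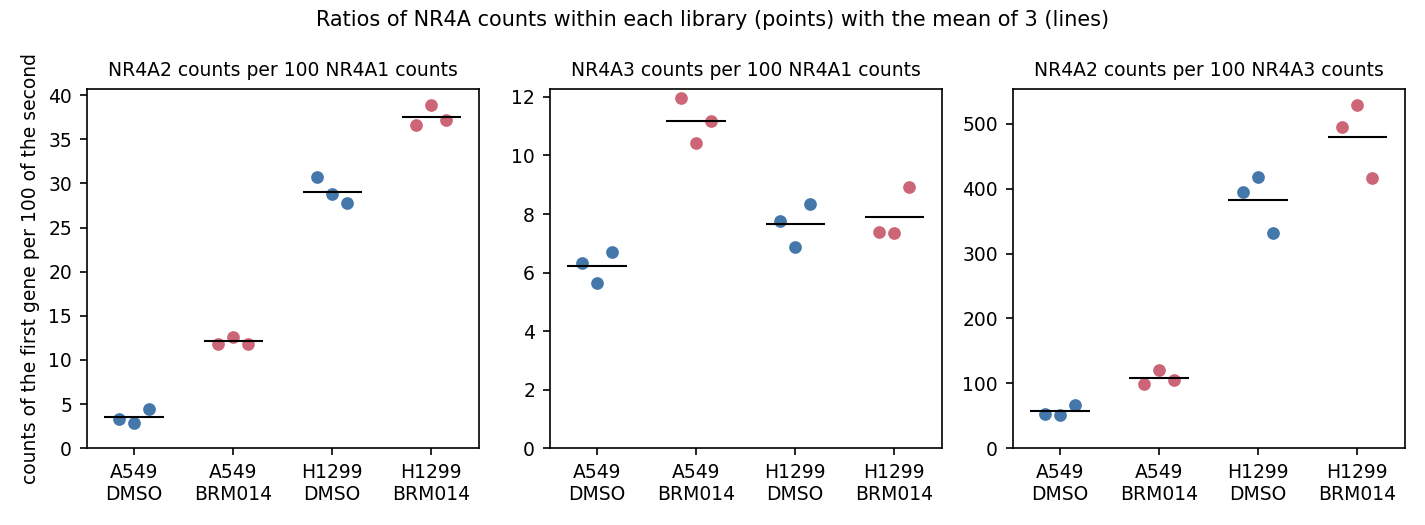
Counts of NR4A2 per 100 of NR4A1, NR4A3 per 100 of NR4A1 and NR4A2 per 100 of NR4A3 in each of the 12 libraries (points, blue for DMSO and red for BRM014), with lines for the mean of 3 and axes from 0. Each ratio is higher with BRM014 in all A549 libraries, while in H1299 the groups separate for NR4A2 per NR4A1 alone. The family was chosen on the A549 rises of NR4A2 and NR4A3, so the A549 ratios are a description only.

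The H1299 response was computed in 14 further ways that give a test. NR4A1 and NR4A2 rose with an adjusted p below 0.05 in 14 of 14, with adjusted p from 8.55e-05 to 0.00644 for NR4A1 and from 1.10e-07 to 2.57e-04 for NR4A2 in edgeR, DESeq2 or limma-voom. NR4A3 passed in 0 of 14, with adjusted p from 0.210 to 0.626. Its value rested on single libraries more than those of its relatives, since without BRM014 replicate 3 the log2 fold change of NR4A3 was 0.25 and without BRM014 replicate 2 it was 0.48.

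**Figure D4:**
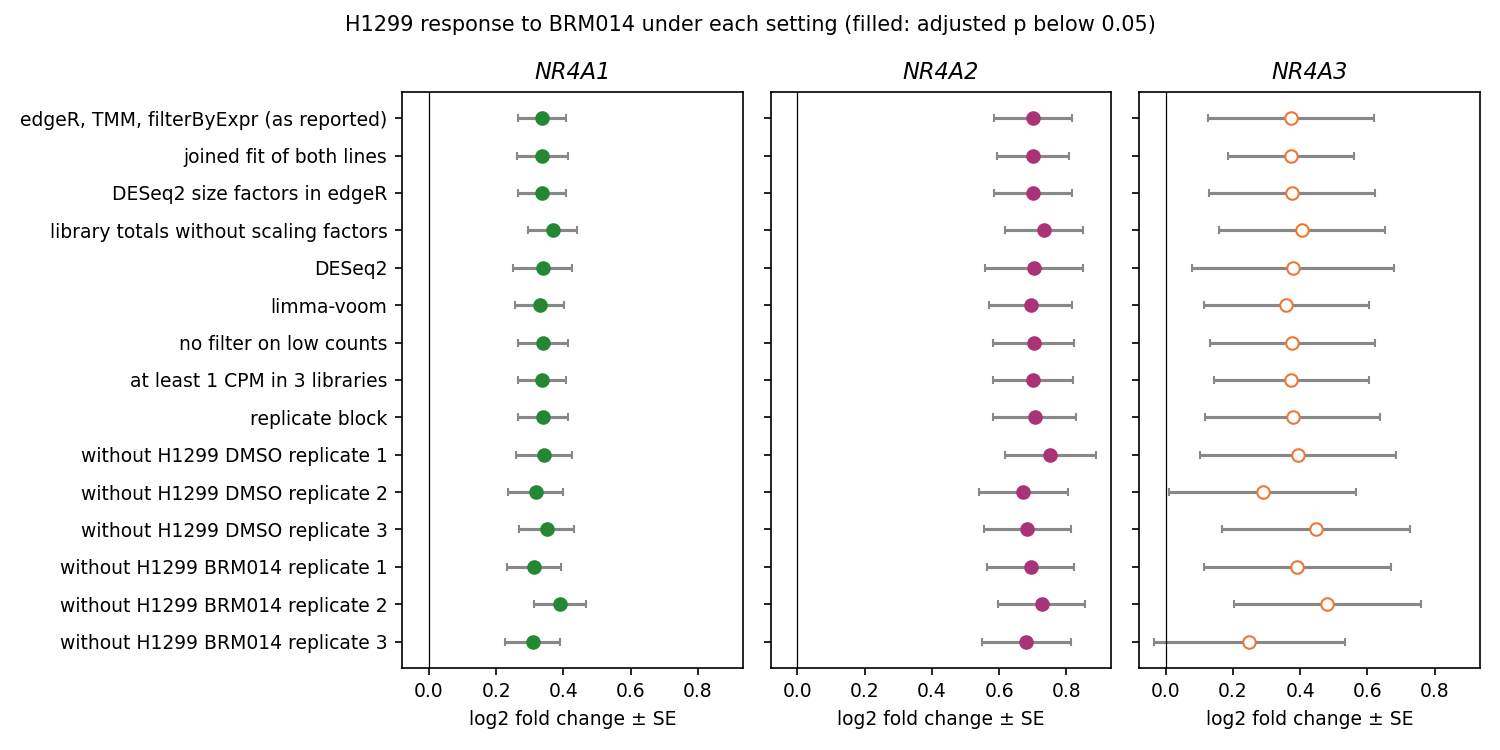
Log2 fold change with BRM014 in H1299 (x axis, with bars for the standard error) of NR4A1, NR4A2 and NR4A3 as reported and under each of the 14 other settings (y axis). Filled points have an adjusted p below 0.05: all points of NR4A1 and NR4A2 are filled and none of NR4A3.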

How the data were processed

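For each line the authors deposited 1 table of gene-level counts, whole numbers with no normalization. The submitters' processing notes list hg38 as the build and, as tools, STAR 2.7.3a, featureCounts, DESeq2, Bowtie 1.2.2 and cutadapt 1.14. Which tool did what, the annotation and the strand setting were not given in the sources used here, so counts of genes overlapping on either strand are uncertain. Per the labels' protocols, libraries were stranded total RNA depleted of ribosomal RNA. They also received spike-in RNA scaled to the number of cells; its counts were not used here, so all differences are relative.

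The analysis used edgeR 4.0.16 (R 4.3.3): filterByExpr at its defaults (a count minimum of 10 in a library of median size and 15 in total), TMM scaling, and the two-sided quasi-likelihood test on the whole table of each line, adjusted by Benjamini-Hochberg, with a threshold of 0.05. "Rose" and "fell" mean past this threshold in H1299, and for genes other than the receptors also in A549. Standard errors are the size of the log2 fold change over the root of its F value. Differences between lines came from a fit of the 12 libraries over the identifiers in both tables. The steps were tested on simulated data, with changes put only into genes with more counts on average than NR4A3 had in H1299. That check does not cover the H1299 call of NR4A3. Alternatives were other scalings and filters, DESeq2 1.42.0, limma-voom (limma 3.58.1), the fit of both lines together, a replicate block and leaving out each library.

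The members and lists were chosen with earlier results of these data known. Named genes were the members and, by rule, genes with the highest Pearson correlation of log2 CPM (prior count 2) with each member. Name tables at hand matched 0 of the identifiers, so lists of receptor partners, other nuclear receptors, immediate early genes, CREB and CRTC genes, MEF2 and calcineurin genes and cell type markers, which had been set by symbol, were not tested, and the cell lines were not checked against markers. Sequences and genome positions of the receptors are not given here. The remaining 95 samples of the series were not analysed here.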

Additional observations from a re-analysis of the deposited data

How the results depend on the processing

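The log2 differences of the 3 receptors kept their sign in all 183 values from other settings, over both responses, their difference and the DMSO level. All of these come from the same libraries or a part of them, so a kept sign is no independent support. The A549 responses, the differences between responses and the DMSO levels also use A549 libraries that chose the family. The H1299 test gave the same call for each receptor in the 14 settings that have a test. The DMSO differences between the lines, H1299 minus A549, moved beyond the spread with library totals, to -1.19 for NR4A1, 1.85 for NR4A2 and -0.88 for NR4A3, by the shift of all genes given above. Without A549 DMSO replicate 3, the low library of its group for NR4A1, that of NR4A1 was -1.51; leave-one-out values ran from -1.51 to -1.38 for NR4A1. Leaving out a library gave log2 fold changes of 0.31 to 0.39 for NR4A1, 0.67 to 0.75 for NR4A2 and 0.25 to 0.48 for NR4A3 in H1299, and of 1.75 to 1.87, 3.51 to 3.70 and 2.63 to 2.72 in A549. The change of NR4A3 per NR4A1 in H1299, 0.04 on the log2 scale, turned to -0.04 without DMSO replicate 2 and to -0.05 without BRM014 replicate 3. The leave-one-out fits of the ratios, the fits without both unnumbered libraries and the ratios of summed counts were chosen after seeing the data. With 1 BRM014 library left in A549, that library is assumed to vary like the others.

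With the replicate number as a block, log2 fold changes in H1299 were 0.34, 0.71 and 0.38 for NR4A1, NR4A2 and NR4A3, and 3272 genes changed; it altered no call of the receptors. The deviations of same-numbered libraries in H1299 correlated at -0.0683, -0.0149 and 0.0121, so the numbers are not taken to pair them. A549 has no such fit, as 2 of its libraries have no number. NR4A3 in H1299 rested on 27 to 49 counts per library, the fewest of the 3 receptors in that line; the part of depth in its missing call was not tested.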
